A study of Homo sapiens with 8 samples.

Results

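The genes described are 10 of the 26475 genes in the count table, namely the small heat shock proteins HSPB8, HSPB1 and CRYAB, the cochaperone BAG3, the HSP70 proteins HSPA1A, HSPA1B and HSPA8, the HSP110 protein HSPH1, the J-domain protein DNAJB1 and the transcription factor HSF1. They were picked by symbol, with results of the comparison below already known. Their differences between the groups are therefore a description. All samples were BT474 cells, a human line from a breast carcinoma that carries extra copies of ERBB2, grown on plates below confluence. The labels put 4 samples in NPY1R high and another 4 in NPY1R low, where NPY1R encodes the neuropeptide Y receptor Y1. The labels enter this as the genotype, name no construct, sort or drug for either group, and do not say whether the replicates came from separate cultures, so the spread between samples may be technical. The series title places the samples in a study of drug-tolerant persisters under lapatinib, a kinase inhibitor aimed at ERBB2 and EGFR. RNA was sequenced, and the comparison asks how the cells with high and with low NPY1R differ.

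Small heat shock proteins bind unfolding proteins without using ATP and hold them for the HSP70 machine. HSP70 proteins then refold the client in cycles of ATP use, in which J-domain proteins deliver the client and HSP110 and BAG proteins exchange the nucleotide. BAG3 also binds HSPB8 directly and, with HSP70, routes clients to autophagy. HSF1 is the main activator of heat-induced chaperone genes and binds heat shock elements, arrays of the unit GAA in alternating direction. HSPB8 has the synonym E2IG1 in RefSeq, which stands for estrogen-induced gene, and both HSPB8 and HSPB1 are known estrogen-responsive genes in breast cancer cells.

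HSPB8 was higher in every NPY1R high library than in any NPY1R low library, by 7.03-fold on average. None of the other 8 members that could be tested differed by more than 0.29 on the log2 scale in the fit to all libraries. HSPH1 was slightly lower in NPY1R high, by a call that was lost in 21 of 28 alternative fits. CRYAB was at or near 0 in both groups.

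The sequences before the genes' starts are shown for HSPB8, the member that rose, and for 4 members that did not, because these 5 are the members with a heat shock element core in that window. Capitals mark GAANNTTC and TTCNNGAA, the 2 ways in which a pair of neighbouring units can meet, where N is any base. Both motifs read the same on both strands, and matches may overlap. The windows are the 250 bases before each start, from RefSeq, build GRCh38.p14, written on the gene's strand. For HSPA8 the start used by that table lies inside the gene's full annotated span.
HSPB8, chr12:119178681-119178930, plus strand: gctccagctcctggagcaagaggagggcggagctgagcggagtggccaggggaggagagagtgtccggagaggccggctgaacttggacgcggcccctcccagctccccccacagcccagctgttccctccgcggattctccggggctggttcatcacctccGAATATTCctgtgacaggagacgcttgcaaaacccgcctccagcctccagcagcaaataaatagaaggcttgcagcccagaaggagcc
HSPB1, chr7:76302423-76302672, plus strand: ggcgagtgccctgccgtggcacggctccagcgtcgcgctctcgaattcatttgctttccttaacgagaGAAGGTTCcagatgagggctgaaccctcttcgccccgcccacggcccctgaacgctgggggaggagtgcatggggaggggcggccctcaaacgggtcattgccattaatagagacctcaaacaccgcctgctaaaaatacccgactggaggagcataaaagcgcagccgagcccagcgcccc
HSPA1A, chr6:31815293-31815542, plus strand: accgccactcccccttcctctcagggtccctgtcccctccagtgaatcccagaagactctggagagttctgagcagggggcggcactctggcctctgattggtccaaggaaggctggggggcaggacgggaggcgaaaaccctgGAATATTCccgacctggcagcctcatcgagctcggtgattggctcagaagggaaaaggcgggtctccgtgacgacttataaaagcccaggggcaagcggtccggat
HSPA1B, chr6:31827488-31827737, plus strand: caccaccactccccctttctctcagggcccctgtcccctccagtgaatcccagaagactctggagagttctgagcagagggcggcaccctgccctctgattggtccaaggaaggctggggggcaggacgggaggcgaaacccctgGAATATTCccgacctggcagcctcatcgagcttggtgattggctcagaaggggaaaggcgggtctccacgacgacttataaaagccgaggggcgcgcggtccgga
HSPA8, chr11:123062137-123062386, minus strand: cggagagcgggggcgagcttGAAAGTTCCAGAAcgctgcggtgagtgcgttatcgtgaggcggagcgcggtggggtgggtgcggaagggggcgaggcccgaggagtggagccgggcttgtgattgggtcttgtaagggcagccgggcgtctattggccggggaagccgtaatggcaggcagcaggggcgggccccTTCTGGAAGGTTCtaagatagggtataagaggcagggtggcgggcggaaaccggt

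Of the 10 members, 8 had a promoter in the table, and CRYAB and HSF1 did not. GAANNTTC or TTCNNGAA was found in 5 of the 8 windows, against 11.6% of 35116 promoter windows of the same length. HSPB8 held its match 88 to 81 bases before the start. HSPB8, HSPA1A and HSPA1B held the same 8 letters, GAATATTC, which occur in 0.29% of all windows. The HSPA1A and HSPA1B windows are 94.4% identical, so their matches are not separate finds. The members were also picked by symbol as heat shock genes, so nothing is read from these shares. HSPA8 was the only 1 of the 8 with 3 units in a row (GAA, TTC and GAA, each 2 bases apart, searched on both strands), in 2 places, and 0.441% of all windows have such an array. The windows of BAG3, HSPH1 and DNAJB1 held neither pair. The DNAJB1 window, chr19:14529272-14529521 on the minus strand, lies inside the gene's full annotated span. Other starts of DNAJB1 were not searched. The full estrogen response element, GGTCA and TGACC with 3 bases between them on either strand, was in 0 of the 8 member windows and 0.0399% of all windows. The single arm AGGTCA, on either strand, was in 0 of 8 and 12.1%. A match is a string of letters and not a bound site. A window without one says nothing of the factor.

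Total expected counts ranged from 18025648 to 30609791 per library. NPY1R itself, the check of the labels, lay between 699 and 1049 CPM (a gene's count relative to the TMM-scaled total of its library) in NPY1R high and between 90.8 and 103.7 CPM in NPY1R low. All 8 luminal and amplicon markers listed were tested, and the lowest of them was GATA3, at 33.3 to 42.4 CPM in NPY1R high and 20 to 27.4 CPM in NPY1R low. Of 12 markers of other cell types, PTPRC, CD3E, PECAM1, COL3A1, PDGFRB, ACTA2, KRT5 and KRT14 had at most 4 counts in a library. The summed level of the 4 others was 132.3 to 151.1 CPM in the NPY1R high libraries and 78.05 to 95.44 CPM in NPY1R low. Most of it was VIM, an intermediate filament gene, which rose by a log2 of 1.09 (SE 0.10, adjusted p = 8.11e-05, edgeR's quasi-likelihood test). The 3 others were not called and had differences below 0, of -0.59 (SE 0.23) for CD68, -0.47 (SE 0.17) for VWF and -0.14 (SE 0.19) for COL1A1. In all, 810 of 14008 tested genes were called higher and 1094 lower in NPY1R high. That split depended on the scaling, since library totals gave 949 higher and 807 lower, and upper-quartile factors gave 1009 and 783.

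A gene was called where its p from edgeR's quasi-likelihood test, adjusted over all tested genes after Benjamini and Hochberg, was under 0.05. By that rule, 1 of the 9 tested members was called higher, against 5.78% of all tested genes, and 1 was called lower, against 7.81%. Both directions together made 2 of 9 members, against 13.6% of all tested genes. The CPM values of the 2 groups did not overlap for 3 members, 1 higher (8.77% of all tested genes) and 2 lower (11.4%), against 20.2% in both directions. Since the members were chosen with this comparison known, nothing is read from these shares. The median log2 change was -0.08 over the 9 members and -0.03 over all tested genes. In bulk RNA, fewer cells of a kind and less RNA per cell cannot be told apart.

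HSPB8, on chromosome 12 at 119178931 to 119194746 (GRCh38.p14), encodes the small heat shock protein HSP22. It had 260.4, 264.4, 327 and 317 CPM in NPY1R high replicates 1 to 4. In NPY1R low replicates 1 to 4 it had 46.0, 48.2, 36.5 and 35.4 CPM. The lowest NPY1R high library was thus far above the highest NPY1R low library. The means were 292.2 ± 34.7 CPM for NPY1R high and 41.5 ± 6.53 CPM for NPY1R low (SD, n = 4 each), and the log2 fold change was 2.81 (SE 0.13). By size of the rise it stood 35th of 14008 tested genes. The difference was 2.48 between replicates 1 and 2 of the groups and 3.16 between replicates 3 and 4. The log2 change stayed between 2.76 and 2.90 over 8 refits, each without 1 of the libraries. With no overlap between the groups, any such subset must show a rise. These values therefore describe its size and are not separate support.

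**Figure D1:**
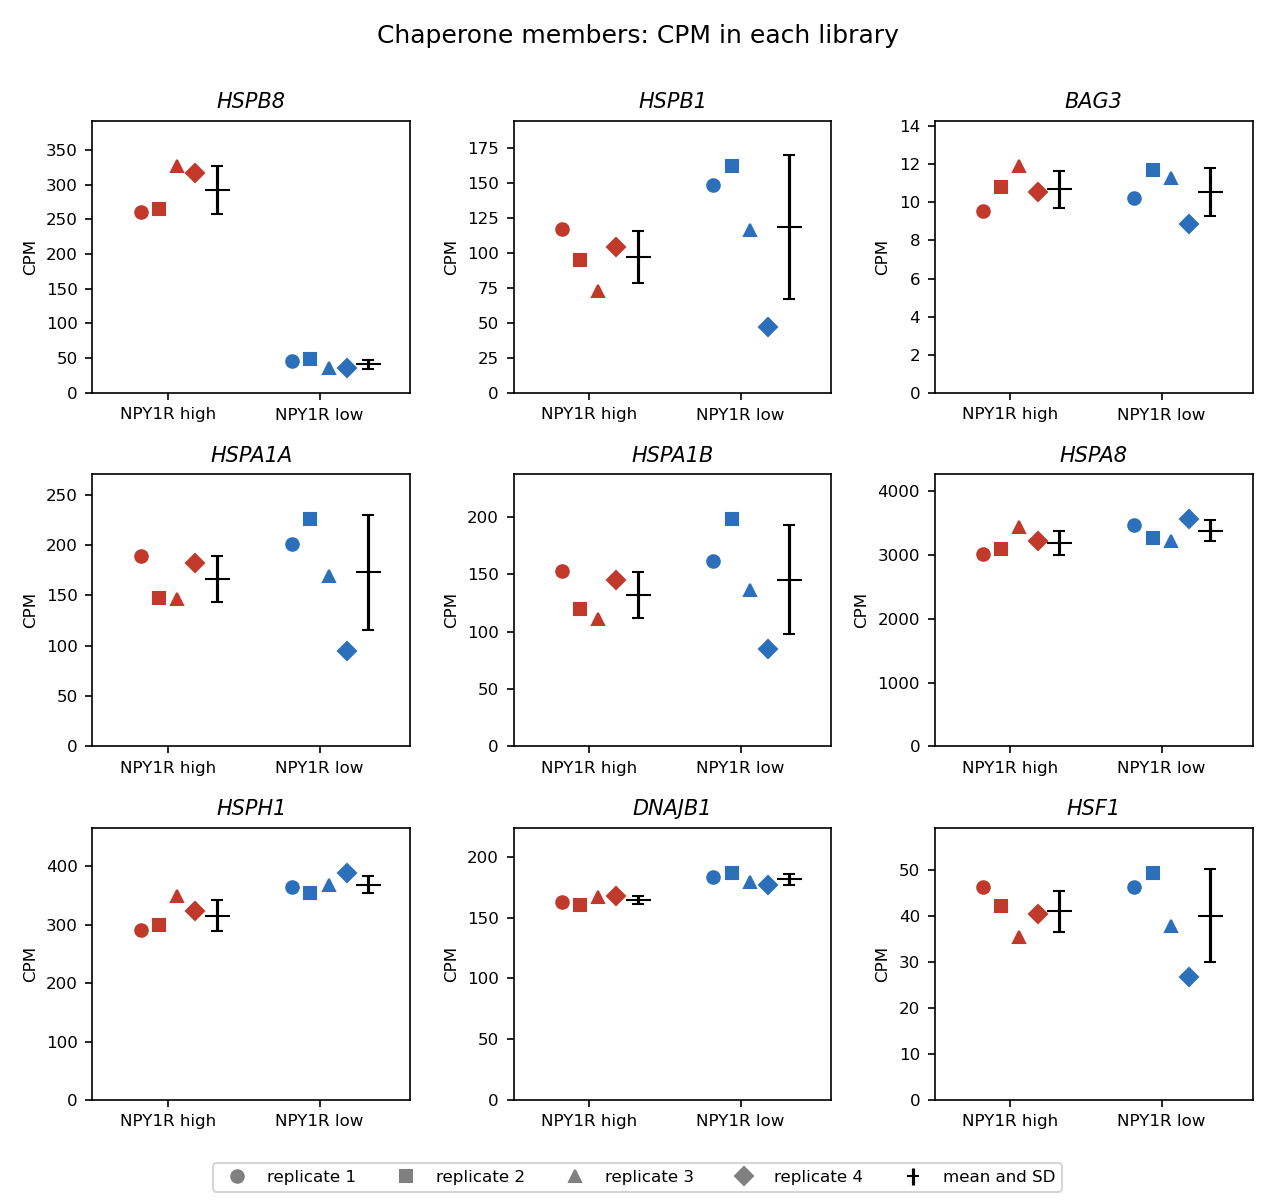
Expression of the 9 tested members in each library, in CPM (vertical axes from 0, scaled per gene), for NPY1R high (red) and NPY1R low (blue). Marker shapes give the replicate number, and black bars the mean and SD of 4 libraries. HSPB8 sits between 260.4 and 327 CPM in the NPY1R high libraries and between 35.4 and 48.2 CPM in NPY1R low, while the groups of HSPB1, BAG3, HSPA1A, HSPA1B, HSPA8 and HSF1 overlap.

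HSPB1, on chromosome 7 at 76302673 to 76304292, encodes the small heat shock protein HSP27. It had 116.9, 94.9, 72.7 and 104.3 CPM in NPY1R high replicates 1 to 4. It had 148.4, 162.1, 116.5 and 46.8 CPM in NPY1R low. The groups overlapped. NPY1R low replicate 4 was below all other libraries, and NPY1R low replicate 3 was just below NPY1R high replicate 1. The log2 difference was -0.29 (SE 0.32) with all libraries and did not pass the threshold. Without NPY1R low replicate 4 it was -0.52 (SE 0.14) and passed, the only 1 of 28 alternatives in which it did. With the trend of each library on transcript GC content removed it was -0.19 (SE 0.15).

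CRYAB, the third small heat shock protein of the set and a main chaperone of lens and muscle, had 3 counts in NPY1R high replicate 2 and 0 in the other 7 libraries. At these depths a count of 0 is compatible with up to 3 counts, or 0.101 to 0.165 CPM, for counting error only. It did not pass the filter on low counts, and no fold is given. Of 7 further genes with a small heat shock protein name, HSPB11 was the 1 that could be tested. HSPB11 is better known as the intraflagellar transport subunit IFT25. Its mean was 24.03 ± 1.66 CPM in the NPY1R high libraries and 19.99 ± 0.922 CPM in the NPY1R low libraries (SD, n = 4 each), a log2 difference of 0.27 (SE 0.08, adjusted p = 0.0517, edgeR's quasi-likelihood test). It was called higher in 17 of 28 alternatives, among them library totals and upper-quartile factors, with adjusted p between 0.0152 and 0.142 over all 28.

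Per length of transcript, HSPB8 was below HSPB1 in all 4 NPY1R low libraries and above it in NPY1R high replicates 2, 3 and 4. In NPY1R high replicate 1 it was at 0.941 of HSPB1. HSPB8 averaged 136 CPM per kilobase in NPY1R high and 19.3 in NPY1R low, and HSPB1 averaged 107 and 130 CPM per kilobase. HSPB8 thus made up 48.5%, 54.0%, 65.5% and 56.2% of the summed per-kilobase level of the 3 genes in NPY1R high replicates 1 to 4. Its share in NPY1R low was 11.6%, 11.2%, 11.7% and 24.2%, where the last and highest value is that of the library with the low HSPB1. Transcript lengths came from GENCODE release 29, with 1 transcript a gene, so levels between genes are approximate.

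BAG3, on chromosome 10 at 119651380 to 119677819, encodes the partner that couples HSPB8 to HSP70. It did not follow HSPB8. It had 9.52, 10.8, 11.9 and 10.5 CPM in the NPY1R high libraries and 10.2, 11.7, 11.3 and 8.88 CPM in NPY1R low replicates 1 to 4. The groups covered the same range, and the log2 difference was 0.02 (SE 0.12), with its sign turning negative without NPY1R high replicate 3 or NPY1R low replicate 4. Per kilobase, HSPB8 exceeded BAG3 by 29.3 to 36.0 times in NPY1R high and by 3.88 to 5.37 times in NPY1R low.

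Of 12 other genes of the autophagy route that BAG3 serves, 11 were tested and 0 were called in edgeR's quasi-likelihood test, limma-voom or DESeq2, with 1 at an unadjusted p under 0.05, where edgeR called 13.6% of all tested genes. The median log2 difference was -0.05, with 8 of 11 below 0. The largest differences were 0.47 (SE 0.21) for SYNPO2, a binding partner of BAG3, at under 1 CPM, and -0.22 (SE 0.20) for TSC2, a brake on mTORC1. STUB1, the ubiquitin ligase that works with HSP70, had 22.8 ± 2.76 CPM in the NPY1R high libraries and 26.0 ± 9.20 CPM in the NPY1R low libraries (SD, n = 4 each). BAG2 had a log2 difference of -0.24 (SE 0.15). In the list of BAG proteins and HSP70 exchange factors, which holds both, 0 of 9 were called by any of the 3 tools, and 0 had an unadjusted p under 0.05 in edgeR.

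HSPA1A and HSPA1B, the heat-inducible HSP70 pair on chromosome 6 at 31815543 to 31817942 and 31827738 to 31830254, are near-identical copies. Their longest open reading frames, of 1926 bases each, differ at 4 bases (99.8% identity), and the windows before their starts agree at 94.4% of 249 bases after a shift by 1. How reads were shared between them depends on the estimation, so the split is uncertain and their sum is the safer value. HSPA1A had 189.5, 147.9, 146.0 and 182.2 CPM in NPY1R high replicates 1 to 4 and 201.4, 225.6, 169.4 and 95.1 CPM in NPY1R low. The sum of both genes was 342.3, 267.9, 257.1 and 326.8 CPM in the NPY1R high libraries and 363.2, 423.4, 305.3 and 180.3 CPM in NPY1R low. As with HSPB1, NPY1R low replicate 4 held the lowest value and NPY1R low replicate 2 the highest, and the groups overlapped. HSPA1A took 52.8% to 56.8% of the pair in all libraries. With the counts of the pair added up, the log2 difference was -0.09 (SE 0.22). For HSPA1A alone it was -0.06 (SE 0.22), and it was slightly above 0 under upper-quartile factors.

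HSPA8, the constitutive HSP70 on chromosome 11 at 123057489 to 123062462, was by far the most abundant member and stood 12th of all tested genes by mean CPM. It had 3020.5, 3088, 3444 and 3214 CPM in the NPY1R high libraries and 3474, 3271, 3213.5 and 3558 CPM in NPY1R low replicates 1 to 4. The groups overlapped, and the log2 difference was -0.08 (SE 0.07). HSPA8 made up 71.1% to 80.5% of the summed CPM of the 10 members. That sum was 4227 to 4663 CPM in the NPY1R high libraries and 4268 to 4636 CPM in NPY1R low.

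HSPH1, the HSP110 exchange factor on chromosome 13 at 31134973 to 31162388, had 291.7, 298.9, 348.8 and 323.5 CPM in the NPY1R high libraries and 364.8, 353.8, 367.7 and 388.7 CPM in NPY1R low replicates 1 to 4. All NPY1R low libraries were higher, with a gap from 348.8 to 353.8 CPM between the groups. The log2 change was -0.22 (SE 0.07). This call was close to the threshold and was lost in 21 of 28 alternatives, among them 7 of the 8 refits without 1 library.

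DNAJB1, the main heat-inducible J-domain partner of HSP70, on chromosome 19 at 14514769 to 14560391, varied least. It had 162.9, 160.4, 166.7 and 167.7 CPM in the NPY1R high libraries and 183.7, 186.8, 179.0 and 176.7 CPM in NPY1R low replicates 1 to 4. The groups did not overlap, yet the log2 difference of -0.14 (SE 0.04) did not pass the threshold. It passed once a covariate split replicates 1 and 2 from 3 and 4, in 1 of 28 alternatives.

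HSF1 encodes the regulator of the heat shock response. Its transcript had 46.2, 42.1, 35.5 and 40.5 CPM in the NPY1R high libraries and 46.2, 49.4, 37.8 and 26.7 CPM in NPY1R low replicates 1 to 4. NPY1R low replicate 4 was the lowest here too. The groups overlapped, and the log2 difference was 0.04 (SE 0.17), which turned negative without NPY1R high replicate 1 or NPY1R low replicate 4. HSF1 is activated mainly as a protein, which these counts do not measure.

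**Figure D2:**
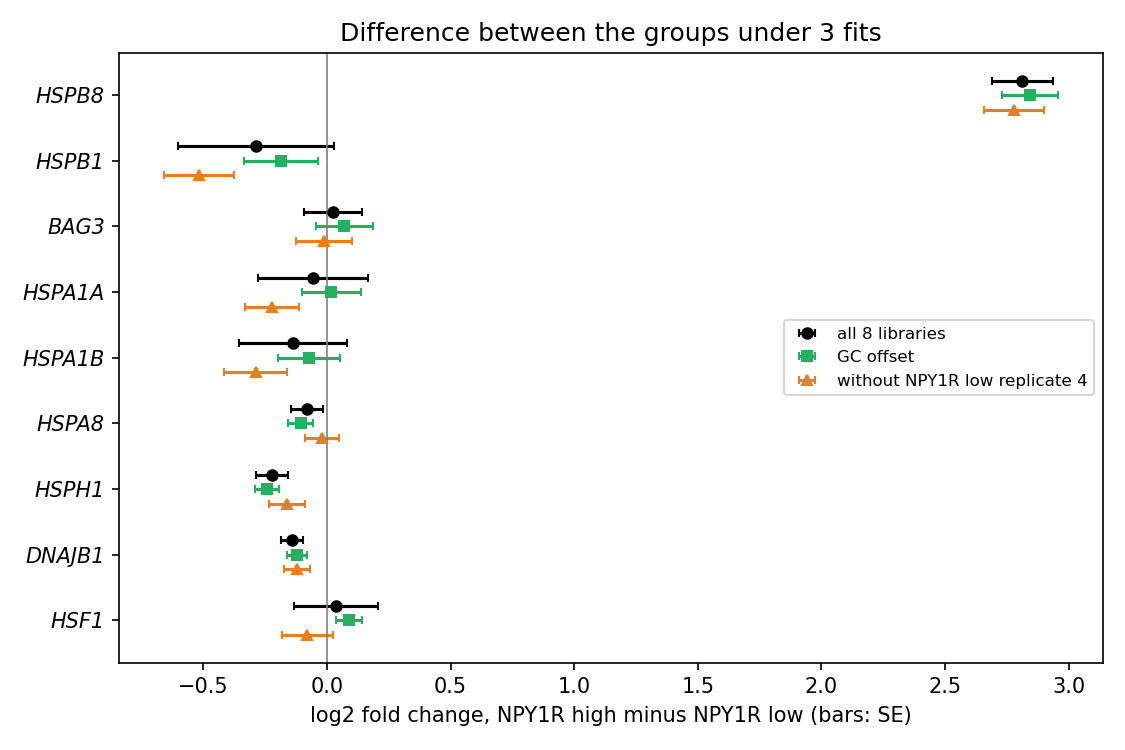
Log2 fold change (horizontal axis, NPY1R high minus NPY1R low, bars give the SE) of the 9 tested members in the fit to all 8 libraries (black circles), with each library's trend on transcript GC content removed (green squares) and without NPY1R low replicate 4 (orange triangles). HSPB8 lies between 2.78 and 2.84 in the 3 fits, and the error of HSPB1 narrows from 0.32 to 0.15 with the trend removed.

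Within the groups, most members fell into sets that deviated together. Each library's log2 CPM was set against the mean of its own group, and the deviations were correlated over the 8 libraries, with 36 pairs of members and no test. HSPA1A and HSPA1B deviated with r = 0.99. HSPB1 deviated with HSPA1A at 0.98 and with HSF1 at 0.98, HSPB8 with DNAJB1 at 0.95, and HSPA8 with HSPH1 at 0.88. These sets line up with transcript GC content, which is 58.7% to 64.5% in HSPA1B, HSPA1A, HSF1 and HSPB1, 53.0% and 53.8% in DNAJB1 and HSPB8, and 47.0% and 40.0% in HSPA8 and HSPH1. BAG3, at 56.9%, was in none of them. It deviated with HSPA1A, HSPA1B, HSPB1 and HSF1 at 0.39 to 0.49 and with HSPB8 at 0.60. Across all tested genes, the deviation of a library followed GC content with a Spearman's rho between 0.564 (NPY1R low replicate 1) and -0.649 (NPY1R low replicate 4), where genes are not independent replicates.

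After the GC trend was taken out of each library, the SD of the deviations fell from 0.30 to 0.05 for HSF1, from 0.62 to 0.29 for HSPB1 and from 0.42 to 0.23 for HSPA1A. It went from 0.20 to 0.19 for HSPB8 and from 0.16 to 0.17 for BAG3. HSF1 then no longer deviated with HSPB1 (r = -0.35) or HSPA1A (-0.36). HSPB1 still deviated with HSPA1A at 0.93 and with HSPA1B at 0.90, and HSPB8 with DNAJB1 at 0.73. HSPB8 now also deviated with HSPH1 at 0.80, from 0.23 before, and with HSPA8 at 0.72, from 0.33 before. All these values share the same 8 libraries and their depth.

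**Figure D3:**
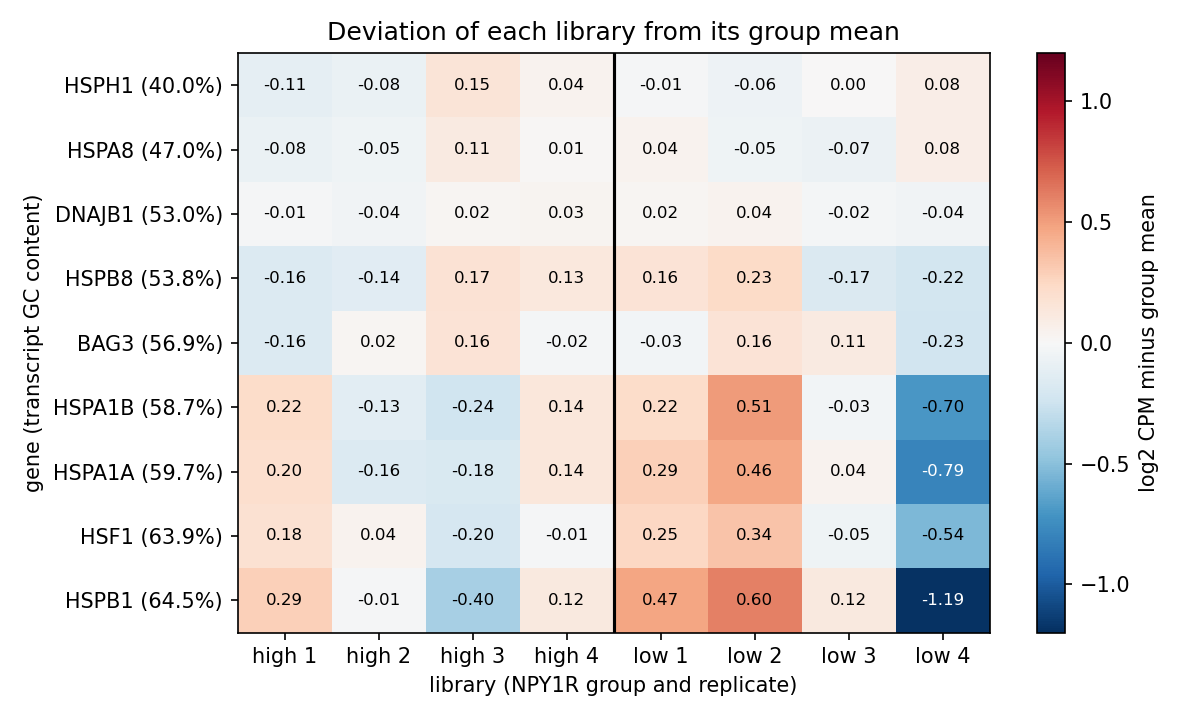
Log2 CPM of each member in each library minus the mean of its group of 4 (colour and printed value), with genes ordered by transcript GC content from HSPH1 at 40.0% to HSPB1 at 64.5%. NPY1R low replicate 4 runs from 0.08 in HSPH1 and HSPA8 to -1.19 in HSPB1.

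Over 7333 other genes with a mean of at least 20 CPM, those whose deviations were most like HSPB8 were TCN1 (r = 0.983), CRABP2 (0.974) and OXA1L (0.973). TCN1 encodes a vitamin B12 binding protein, CRABP2 a retinoic acid binding protein and OXA1L an insertase of the inner mitochondrial membrane. Between the groups they did not go with HSPB8. TCN1 changed by a log2 of -0.58 (SE 0.09) and CRABP2 by -0.47 (SE 0.08), both called lower in NPY1R high. OXA1L had -0.02 (SE 0.04) and was not called. Those most like HSPA1A were NADSYN1 (0.998), CLN3 (0.997) and LARS2 (0.996). OXA1L fell to 0.682 when CPM were scaled by library totals. With the GC trend removed, the 3 values for HSPB8 were 0.872, 0.848 and 0.817, and those for HSPA1A were 0.948, 0.986 and 0.973. Over the 8 libraries, the deviations of NPY1R correlated at 0.45 with those of HSPB8, at 0.94 with HSPH1 and at 0.79 with HSPA8. The values for BAG3 and DNAJB1 were 0.28 and 0.40, and those for HSPA1A, HSPA1B, HSPB1 and HSF1 were -0.33, -0.37, -0.47 and -0.54. The GC trend was not removed from these NPY1R values. The highest belonged to the members with the lowest transcript GC content, HSPH1 and HSPA8. The lowest belonged to those with the highest, HSPB1 and HSF1.

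The wider chaperone network held few calls. Lists of 117 further chaperone, cochaperone and partner genes, written from general knowledge, held 103 tested genes, of which 1 was called higher and 5 lower in NPY1R high. That is 5.83% of the 103, against 13.6% of all tested genes. The median log2 difference was -0.07, and 73 of the 103 were below 0. With the GC trend removed, 2 were called higher and 18 lower, or 19.4% of the 103 against 21.0% of all tested genes. CCT4, HSPD1, LONP1, DNAJB11 and HSBP1 were among the 18.

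The gene called higher was DNAJC6, which encodes auxilin, the J-domain protein that recruits HSPA8 to uncoat clathrin vesicles. It rose from 5.31 ± 1.31 to 11.6 ± 2.30 CPM (SD, n = 4 each) with a log2 change of 1.12 (SE 0.20, adjusted p = 0.00431, edgeR's quasi-likelihood test), and was called in all 28 alternatives. HSPA2, an HSP70 best known from the testis, fell from 1.38 ± 0.0861 to 0.692 ± 0.127 CPM (SD, n = 4 each) with a log2 change of -0.98 (SE 0.20, adjusted p = 0.00831, edgeR's quasi-likelihood test), and it too was called in all 28. Of 6 tested genes in the HSP70 and HSP110 list, HSPA2 was the 1 called, or 16.7% against 13.6% of all tested genes. HSPA4L had a log2 difference of -0.23 (SE 0.13). With the GC trend removed, HSPA14 of this list was called too.

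The other 4 falls were small. DNAJC13, an endosomal J-domain protein, changed by -0.23 (SE 0.05), and DNAJC3, an ER cochaperone of the unfolded protein response, by -0.24 (SE 0.05). CCT5 and CCT7, subunits of the TRiC ring that folds actin and tubulin, changed by -0.19 (SE 0.05) each. Of 28 alternatives, 22 lost the call of CCT5, 20 that of CCT7, 12 that of DNAJC13 and 5 that of DNAJC3. In the J-domain list 1 gene was called higher and 1 lower of 17 tested, or 11.8% against 13.6% of all tested genes. DNAJB7, at under 1 CPM, had a log2 difference of 0.94 (SE 0.47). With the GC trend removed, DNAJA4 and DNAJB6 of this list were called too. In the TRiC and prefoldin list 2 of 14 were called, both lower, or 14.3% against 13.6% of all tested genes. CCT4 had -0.19 (SE 0.06, adjusted p = 0.0683, edgeR's quasi-likelihood test). With the GC trend removed, CCT4, CCT5, CCT7, CCT8 and TCP1 of this list were called, where 21.0% of all tested genes were.

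HSP90, the other large cytosolic chaperone, and its cochaperones had 0 of 19 tested genes called in edgeR's quasi-likelihood test. That test called 13.6% of all tested genes. The median log2 difference of the list was -0.06. DESeq2 and limma-voom also called 0, and 2 had an unadjusted p under 0.05 in edgeR, both lower. The share of all tested genes at that unadjusted threshold is not given here. PTGES3 of this list was called with the GC trend removed. With a covariate that splits replicates 1 and 2 from 3 and 4, PTGES3 and STIP1 were called. Without these adjustments, the largest differences in the list were -0.19 (SE 0.16) for CDC37L1 and -0.16 (SE 0.11) for NUDC. The mitochondrial chaperones had 0 of 11 called by the same 3 tools (2 at an unadjusted p under 0.05 in edgeR), 10 of them below 0, with -0.26 (SE 0.19) for LONP1 and -0.22 (SE 0.09) for HSPD1. With the GC trend removed, HSPA9, HSPD1 and LONP1 of this list were called, where 21.0% of all tested genes were. Of 12 ER chaperones, DNAJC3 was the 1 called (8.33%), and DNAJB11 had -0.24 (SE 0.08). CANX and DNAJB11 were called too with that trend removed, as was HSBP1 of the next list. Of the other heat shock factors and their binding protein, 0 of 3 were called by the same tools (1 at an unadjusted p under 0.05 in edgeR), with 0.45 (SE 0.25) for HSF4 and -0.14 (SE 0.06) for HSBP1.

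**Figure D4:**
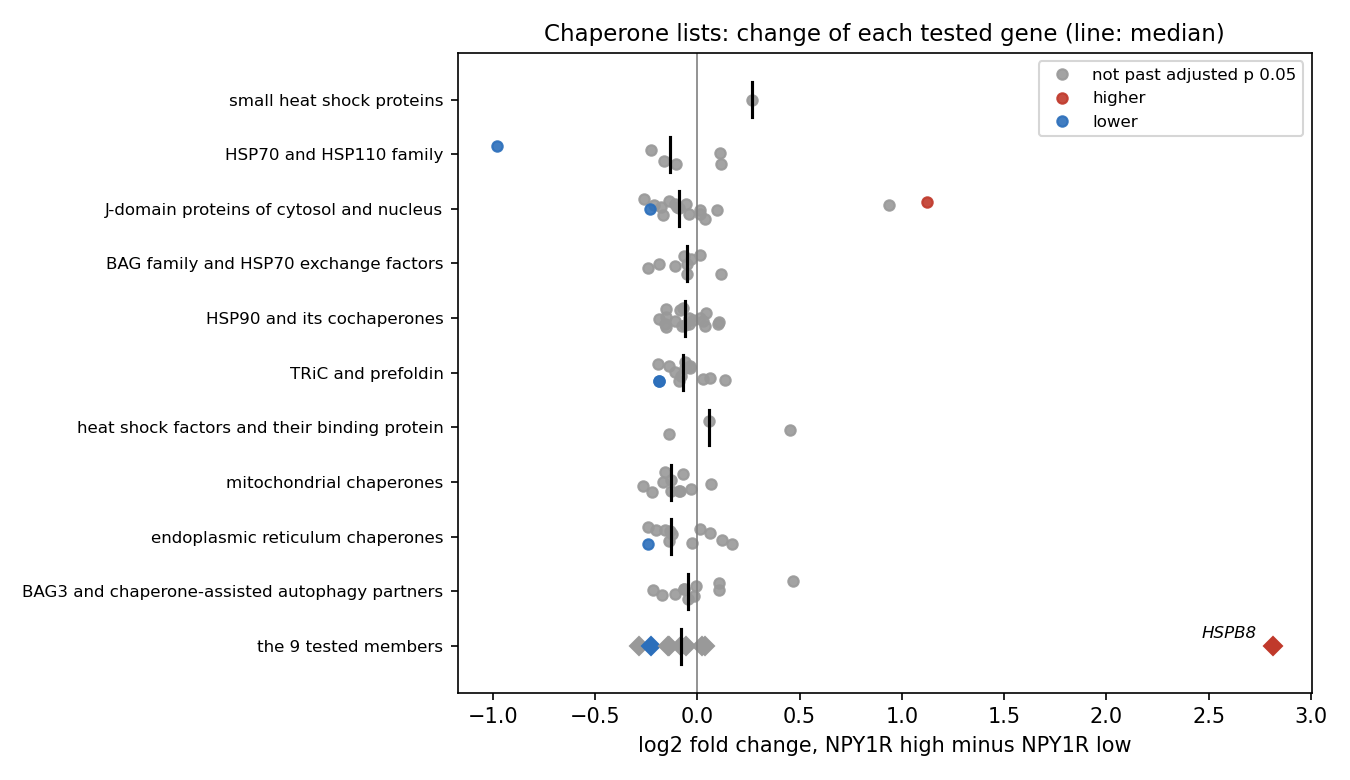
Log2 fold change (horizontal axis, NPY1R high minus NPY1R low) of each tested gene in 10 chaperone and partner lists and of the 9 tested members, with the median of each list as a black line. Red and blue mark genes called higher and lower in edgeR's quasi-likelihood test, and HSPB8 stands at 2.81, to the right of every listed gene.

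Heat shock genes often move with immediate early genes when cells are stressed in handling, so 14 of those were listed too. Of these, 4 rose in NPY1R high and 0 fell in edgeR's quasi-likelihood test, with 0 lower at an unadjusted p under 0.05 too, against 5.78% of all tested genes called higher and 7.81% lower. FOS rose by a log2 of 0.95 (SE 0.09), EGR1 by 0.85 (SE 0.22), JUN by 0.28 (SE 0.07) and KLF6 by 0.28 (SE 0.07). The call was lost in 6 of 28 alternatives for EGR1, whose groups overlapped, and in 4 each for JUN and KLF6. The summed level of all 14 was 513.1 to 579 CPM in the NPY1R high libraries and 439.9 to 489.7 CPM in NPY1R low. Among the members, HSPB8 was called higher and HSPH1 lower. HSPA1A, HSPA1B, HSPA8, DNAJB1, BAG3, HSPB1 and HSF1 were not called. The part of handling in the HSPB8 difference was not tested. Of the luminal markers, ESR1 rose by 0.59 (SE 0.05) and GATA3 by 0.60 (SE 0.11), while GRB7 changed by -0.52 (SE 0.08) and EPCAM by -0.30 (SE 0.05). ESR1 and GATA3 differed in the direction of HSPB8, GRB7 and EPCAM in the opposite one, and their part in its change was not tested.

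The 3 nearest tested genes on each side of HSPB8 on chromosome 12, taken by position, did not all change in its direction. On the side of lower coordinates, SRRM4, a neural splicing factor gene that ends 15880 bases before HSPB8 starts, had 13 to 17 counts in the NPY1R high libraries and 0 in all NPY1R low libraries. Against a floor of 3 counts over the NPY1R low group it was at least 20.1-fold higher. SRRM4 passed the filter on low counts through the NPY1R high libraries alone. As a tested gene it could thus only come out higher, and nothing is read from its direction. The other tested genes lie much further off. SRRM4 starts at 118981541, and the tested gene before it, SUDS3, ends at 118418033. SUDS3 had a log2 difference of -0.13 (SE 0.07), and TAOK3, a stress-activated kinase gene, rose by 0.48 (SE 0.06). On the other side, HSPB8 ends at 119194746 and the nearest tested gene, PRKAB1, starts at 119667952. PRKAB1 had -0.03 (SE 0.08), CIT, which encodes citron kinase of cytokinesis, had a log2 change of -1.04 (SE 0.13), and RAB35 had -0.06 (SE 0.08).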

How the data were processed

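RNA from 8 BT474 libraries (4 NPY1R high, 4 NPY1R low, a stranded kit with an input of 200 ng, per the labels' protocols) was sequenced. Each deposited value is the authors' estimated count for a gene symbol (an expected count, not scaled). STAR 2.5.2, RSEM 1.3.0 and build hg38 are listed in the submitters' processing notes. The annotation is not given in the sources used here. Of the values in a library, 7.97% to 8.76% are not whole. The series table was used, and the 8 single-sample tables held the same values (0 differing). Columns of no listed sample numbered 0.

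Expected counts were rounded, filtered with filterByExpr (minimum count 10; 14008 of 26475 genes), scaled by TMM and tested for NPY1R high against NPY1R low with edgeR 4.0.16 (quasi-likelihood, no covariate, Benjamini-Hochberg over all tested genes, threshold 0.05), in R 4.3.3. DESeq2 1.42.0 and limma 3.58.1 (voom) served as alternatives. CPM are TMM-scaled, and log2 CPM used a prior count of 2. The SE is the log2 fold change divided by the root of the F statistic. The members and lists were chosen with earlier results of these data known. No p-value is given for the members, whose choice rests on this comparison. Those of list genes are adjusted over all tested genes and are not independent support. Counts at an unadjusted p under 0.05 in edgeR have no share of all tested genes beside them, so nothing is read from them. The members are always named. So are, of each list, the genes called and the 2 with the largest absolute change. For HSPB8 and HSPA1A, the 3 genes most alike in their deviations (mean of at least 20 CPM) are named. No library repeated another: chi-square per degree of freedom was 6.04 or more (to 67.16) for each of 12 same-group pairs. Counts have no molecular identifiers, so floors cover counting error only. The GC trend was a spline with 5 degrees of freedom on transcript GC (GENCODE release 29, a value for 94.1% of tested genes). It was removed as a fit offset or from log2 CPM. Positions and promoters are RefSeq's (GRCh38.p14). The procedure was also run on simulated counts. These held no GC trend between libraries, so that run does not tell how such a trend affects the calls.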

Additional observations from a re-analysis of the deposited data

Results flagged for a closer look

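CRYAB was detected in 1 of the NPY1R high libraries, replicate 2. It had 3 counts, or 0.112 CPM, where the other 3 NPY1R high libraries had 0. Its gap to the next library made up the full range, past the limit that Dixon's test sets for 4 samples, but with the others at 0 any count gives that outcome, so the test carries no information here. This was 1 of 19 group values of the members tested in this way, and chance alone gives about 0.9. The value lies at the floor of 3 counts.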

How the results depend on the processing

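HSPB8 was called higher in all 28 alternatives. Members called numbered 2, and 1 (HSPB8) under median-of-ratios factors, library totals, upper-quartile factors, each of the 7 other TMM references, 1 CPM in 4 libraries, no filter, DESeq2 or an adjusted p under 0.01, and 1 to 2 over the 8 refits without 1 library. The 6 wider chaperone genes called became 3 with upper-quartile factors, 3 without a filter, 3 at an adjusted p under 0.01, 16 with a covariate that splits replicates 1 and 2 from 3 and 4, 20 with the GC offset, 20 with that offset plus the replicate block, and 2 to 7 when each library was left out (2 without NPY1R high replicate 4 or NPY1R low replicate 1, 3 without NPY1R high replicate 1). All genes lower, 1094, became 1681 with that covariate, 1790 with the GC offset, 2005 with that offset plus the replicate block, 562 at an adjusted p under 0.01, and 625 to 1064 over the refits without 1 library. They fell below 1094 by more than 1.5 times without NPY1R high replicate 3 (710), NPY1R high replicate 4 (625) or NPY1R low replicate 1 (678). All genes higher, 810, became 1343 with GC offset plus replicate block and 470 at 0.01.

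Among members, the HSPA1A log2 change turned positive with upper-quartile factors (0.003), limma-voom (0.002), the GC offset (0.017) and that offset plus the replicate block (0.033), with -0.22 to 0.10 over the refits without 1 library. In the same 8 refits the HSPA1B log2 change ranged from -0.29 to 0.049, the BAG3 log2 change from -0.013 to 0.078 and the HSF1 log2 change from -0.08 to 0.15. The causes were not tested. Same-numbered libraries deviated together only in part (r = 0.339, 0.157, 0.0907 and 0.0178), and libraries with different numbers were not compared. On principal component 2 of log2 CPM, replicates 1 and 2 of both groups lay between 7.8 and 24.9. Replicates 3 and 4 lay between -40.1 and -2.5. These values do not settle whether the numbers mark pairs. No label says so, and the main fit used no pairing. With the replicate block, HSPB8 had a log2 change of 2.82 and HSPH1 of -0.23, 2 members and 5 wider chaperone genes were called, and 805 genes were higher and 1028 lower.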
